A study of Homo sapiens with 12 samples.

Results

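Caco-2 cells, a human colonic adenocarcinoma line, were given siRNA against the zinc sensor MTF1 or control siRNA at 150 or 3 µM zinc. A set of 10 genes of the chemokine and NF-kB response was followed. They are the chemokines CXCL1, CXCL2, CXCL3, CXCL8, CXCL12, CXCL16 and CCL20, the cytokine IL32, the NF-kB inhibitor NFKBIA and the mitochondrial superoxide dismutase SOD2. All 17 array probes that the platform table pairs with 1 of these symbols were taken, and a probe entered when its detection p was below 0.05 on all 3 arrays of at least 1 group. This left 14 probes of 9 genes, out of 17413 entering probes of 47323 on the array. CXCL3 had 1 probe, which did not enter. A second CXCL16 probe and another SOD2 probe also did not enter, and both were detected on 0 arrays.

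The series holds 12 Illumina HumanHT-12 V4 arrays in 4 groups of 3. The groups were cells given MTF1 siRNA at 150 µM zinc, control siRNA at 150 µM zinc, MTF1 siRNA at 3 µM zinc and control siRNA at 3 µM zinc. The MTF1 siRNA was an ON-TARGETplus reagent, all cells were transfected with Lipofectamine RNAiMAX, and all came from the 1 cell line grown with fetal calf serum. The duration of the zinc exposure was not given in the sources used here. The series' design text speaks of another target, ZNF658, while its title and every sample label name MTF1, and the labels were followed. Nothing states that the replicates were separate cultures, so p-values measure the spread between these arrays, which may be technical.

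Chemokines are small secreted proteins that draw leukocytes along a gradient. CXCL1, CXCL2, CXCL3 and CXCL8 act on neutrophils through the receptors CXCR1 and CXCR2, CCL20 acts through CCR6, CXCL16 through CXCR6, and CXCL12 through CXCR4 and the scavenging receptor ACKR3. NF-kB is a family of dimeric transcription factors held in the cytoplasm by IkB proteins such as NFKBIA. The IKK kinases mark IkB for destruction, the freed dimers enter the nucleus, and NFKBIA, several chemokine genes and SOD2 are among their known targets. CXCL12 is usually described as a homeostatic chemokine rather than an inflammatory one. MTF1 binds metal response elements when zinc is plentiful and turns on the metallothionein genes and the zinc exporter gene SLC30A1.

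Between 18191 and 19469 probes were detected per array. MTF1 itself, the targeted gene, read 5.31, 5.61 and 6.25 (log2 intensity) with MTF1 siRNA against 6.55, 6.75 and 6.80 with control siRNA at 150 µM zinc. At 3 µM zinc it read 5.69, 5.72 and 6.28 with MTF1 siRNA against 6.49, 6.56 and 6.77 with control siRNA. The groups did not overlap at either zinc level. The log2 difference was -0.98 ± 0.22 (SE, adjusted p = 0.0442) at 150 µM, a call lost in 10 of the 12 fits that left out 1 array, and -0.71 ± 0.22 (adjusted p = 0.207) at 3 µM. MT2A, a metallothionein gene, was higher at 150 than at 3 µM zinc by 4.90 log2 units with MTF1 siRNA and 4.36 with control siRNA. Between the siRNAs MT2A differed by -0.25 ± 0.26 at 150 µM (adjusted p = 0.619) and -0.78 ± 0.26 at 3 µM (adjusted p = 0.236). Neither was called, nor was the difference of its zinc responses (0.53 ± 0.37, adjusted p = 0.498). The 2 SLC30A1 probes rose by 2.15 and 2.12 with MTF1 siRNA and by 2.64 and 2.75 with control siRNA, and at 150 µM they were lower with MTF1 than with control siRNA (-0.57 and -0.74, adjusted p = 0.0198 and 0.0257). Both of these siRNA calls were lost without replicate 1 or 2 of MTF1 siRNA or replicate 2 or 3 of control siRNA at 150 µM, and the difference of the zinc responses was not called (adjusted p = 0.18 and 0.2). Of 10 intestinal epithelial marker genes on the array, 8 entered, while LGALS4 was detected on 0 arrays. Of 13 immune cell markers 6 entered, with CD3D and CD3E detected on 0 arrays, of 9 fibroblast markers 5 entered, with THY1 detected on 0 arrays, and of 5 endothelial markers 1 entered, with KDR and VWF detected on 0 arrays.

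The sequence just upstream of the members' starts is shown so that members whose levels changed with zinc can be set beside those that did not pass the test. RefSeq promoter windows of GRCh38.p14, cut to the 250 bases before each annotated start, matched 9 of the 10 members with 13 windows, CXCL16 being the exception. Both strands were searched for the NF-kB site consensus, for the exact letters GGAATTTCC, which overlap it, for the metal response element cores TGCACNC and TGCGCNC, and for the AP-1 site TGANTCA. The NF-kB site consensus was found in 6 of the 13 member windows and in 9.96% of all 35116 windows. GGAATTTCC was found in 5 of the 13 and in 0.413% of all windows. Members were chosen as chemokine and NF-kB response genes, and IL32 and SOD2 hold more than 1 window each. These shares are thus no test of an excess. Each stretch below holds 1 match with 20 bases on either side, 5′ to 3′ on the gene's strand, and capitals mark the bases of the match on either strand.
CXCL1: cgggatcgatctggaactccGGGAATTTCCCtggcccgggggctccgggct
CXCL2: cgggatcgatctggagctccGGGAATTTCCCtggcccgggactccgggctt
CXCL3: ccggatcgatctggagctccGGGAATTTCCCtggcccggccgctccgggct
CXCL8: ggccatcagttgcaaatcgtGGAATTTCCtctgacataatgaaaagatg
CCL20: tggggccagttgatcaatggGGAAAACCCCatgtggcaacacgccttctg
IL32: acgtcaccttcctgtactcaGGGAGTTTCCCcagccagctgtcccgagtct
NFKBIA: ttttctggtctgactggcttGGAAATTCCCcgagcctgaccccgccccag

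These stretches lie at chr4:73869294-73869344 (plus strand) for CXCL1, chr4:74099243-74099293 (minus strand) for CXCL2 and chr4:74038738-74038788 (minus strand) for CXCL3. That of CXCL8 is at chr4:73740458-73740506 (plus strand), that of CCL20 at chr2:227813743-227813792 (plus strand), that of IL32 at chr16:3065284-3065334 (plus strand) and that of NFKBIA at chr14:35404801-35404850 (minus strand). CXCL1, CXCL2, CXCL3 and CXCL8 belong to the CXC chemokine cluster of chromosome 4, together with CXCL5, CXCL6, PF4 and PPBP. CXCL1 and CXCL3 share 47 of their 51 bases in this stretch, and the 11 bases in capitals are identical in CXCL1, CXCL2 and CXCL3. The matches of CXCL1 and CXCL3 span bases 79 to 69 before the start, that of CXCL2 bases 78 to 68, and that of NFKBIA bases 81 to 72. The CXCL8 letters GGAATTTCC lie 91 to 83 bases before the start and do not meet the longer consensus as searched. The IL32 match belongs to the first of the gene's listed starts.

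Like every SOD2 window, that of CXCL12, the member with the largest zinc differences below, had neither NF-kB pattern. Its 250 bases, chr10:44385098-44385347 on the minus strand of GRCh38.p14, held 1 match, to TGCGCNC read on the opposite strand, 196 to 190 bases before the start and capitalised here.
CXCL12: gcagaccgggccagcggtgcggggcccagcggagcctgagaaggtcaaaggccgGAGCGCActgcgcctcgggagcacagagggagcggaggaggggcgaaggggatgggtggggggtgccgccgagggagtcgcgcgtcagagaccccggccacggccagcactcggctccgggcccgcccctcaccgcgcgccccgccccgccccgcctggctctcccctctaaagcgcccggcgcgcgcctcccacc

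TGCGCNC occurred in 16.8% of all windows and in 3 of the 13 member windows, of CXCL12 and of a pair of SOD2 starts. TGCACNC occurred in 9.87% of all windows and in 3 member windows, of CXCL3, CXCL8 and the second IL32 start. TGANTCA was found in 6.57% of all windows and in 1 member window, that of CXCL8. A match describes the letters and not the binding of a factor, and a window without one says only that these letters are absent from it.

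**Figure D1:**
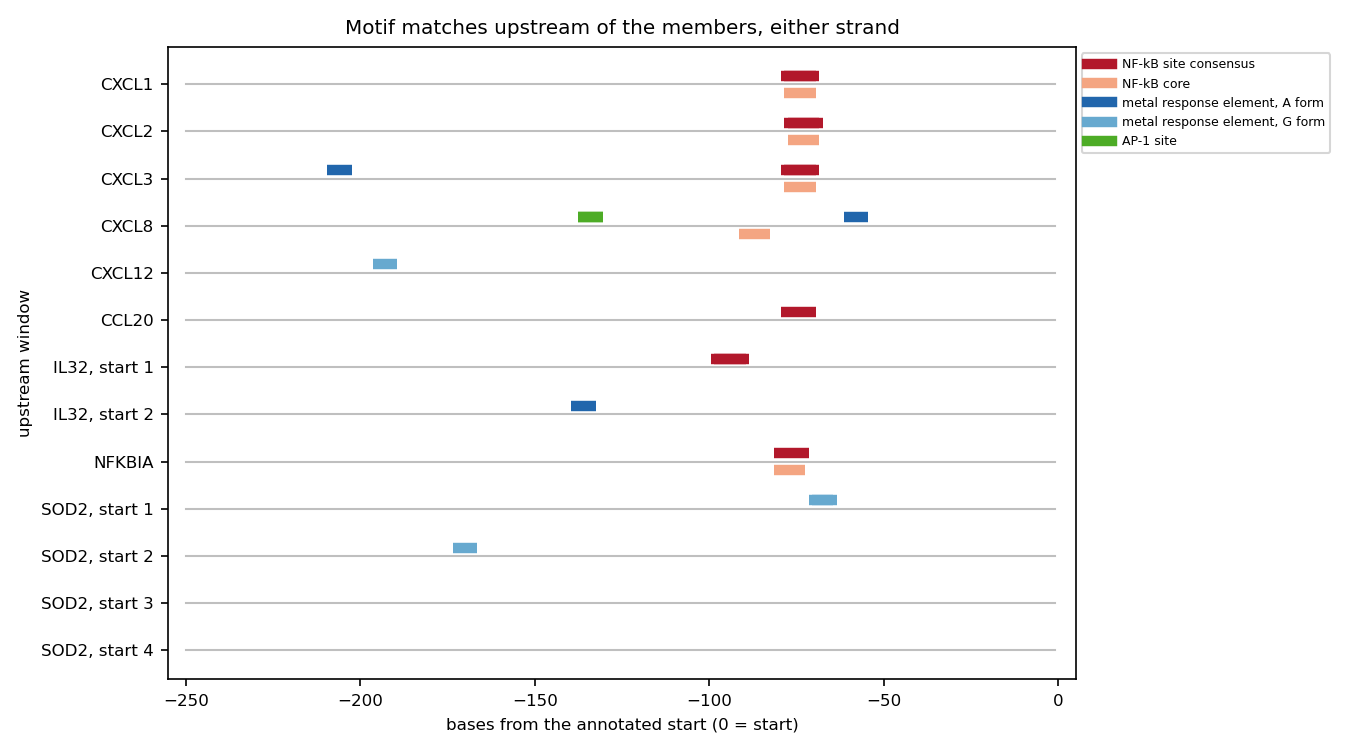
Motif matches in the 250 bases upstream of each annotated start of the members, by distance from the start in bases, with 1 line per window and 1 colour per motif on either strand. The matches to the NF-kB patterns of CXCL1, CXCL2, CXCL3, CXCL8, CCL20, IL32 and NFKBIA fall between 99 and 68 bases before the start, and CXCL12 has 1 metal response element match at 196 to 190 bases.

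The first question was what 150 µM zinc did to these genes. With MTF1 siRNA, all 3 CXCL12 probes fell and both IL32 probes rose, and the same 5 probes changed in the same direction with control siRNA. The remaining 9 probes, of CXCL1, CXCL2, CXCL8, CXCL16, CCL20, NFKBIA and SOD2, did not pass the test in either. The 5 called of 14 stand against 15.0% of all entering probes with MTF1 siRNA, where 7.06% were higher and 7.93% lower, and 17.2% with control siRNA, where 8.43% were higher and 8.73% lower. Groups did not overlap for 6 of the 14 with MTF1 siRNA, against 34.6% of all probes, and for 7 of the 14 with control siRNA, against 34.9%. The median log2 difference of the 14 was 0.08 with MTF1 siRNA and -0.04 with control siRNA, beside -0.01 and 0.00 over all 17413 probes. A call here is an adjusted p below 0.05 from limma after Benjamini-Hochberg adjustment over all entering probes, and differences are on the log2 scale of normalised intensity, on which dim probes understate a change.

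CXCL12 encodes the ligand of CXCR4, a chemokine that holds leukocytes and stem cells in their niches. Its probe ILMN_1791447 read 7.98, 8.00 and 8.07 with MTF1 siRNA at 150 µM zinc, against 9.93, 9.95 and 10.07 with MTF1 siRNA at 3 µM. With control siRNA it read 8.51, 8.58 and 8.64 at 150 µM, against 10.04, 10.12 and 10.31 at 3 µM. All 6 arrays at 150 µM lay more than 1 log2 unit below all 6 at 3 µM. The difference was -1.96 ± 0.10 (SE, n = 3 arrays each, adjusted p = 8.18e-08), a 3.90-fold lower level, with MTF1 siRNA, and -1.58 ± 0.10 (adjusted p = 7.7e-07), 2.98-fold lower, with control siRNA.

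The other 2 CXCL12 probes are annotated to a different RefSeq transcript of the gene. ILMN_1689111 read 7.73, 7.82 and 7.86 at 150 µM against 9.77, 9.83 and 9.99 at 3 µM with MTF1 siRNA, and 8.26, 8.26 and 8.39 against 9.80, 9.94 and 10.03 with control siRNA. ILMN_1803825 read 6.98, 7.15 and 7.26 at 150 µM against 8.60, 8.71 and 8.72 at 3 µM with MTF1 siRNA, and 7.42, 7.42 and 7.47 against 8.80, 8.89 and 9.04 with control siRNA. Both probes therefore fell without overlap between the zinc groups, as ILMN_1791447 did. Their differences were -2.06 ± 0.10 and -1.55 ± 0.10 with MTF1 siRNA (adjusted p = 8.02e-08 and 1.09e-06) and -1.62 ± 0.10 and -1.48 ± 0.10 with control siRNA (adjusted p = 8.38e-07 and 2.36e-06). Ranked from the lowest difference among all 17413 probes, the 3 CXCL12 probes stood 9th, 5th and 32nd with MTF1 siRNA and 14th, 12th and 22nd with control siRNA, in the order ILMN_1791447, ILMN_1689111, ILMN_1803825. In these bulk RNA samples, fewer cells expressing a gene and less RNA per cell cannot be told apart.

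The receptor of CXCL12 moved the other way. CXCR4 probe ILMN_1801584 read 6.58, 6.67 and 6.85 with MTF1 siRNA at 150 µM zinc, against 4.40, 4.41 and 4.44 at 3 µM, where it was not well above background on any array. With control siRNA it read 6.41, 6.50 and 6.70 at 150 µM against 4.43, 4.49 and 4.69 at 3 µM, again not well above background. CXCR4 was thus at least 2.81-fold higher at 150 µM with MTF1 siRNA (adjusted p = 8.02e-08) and at least 2.50-fold higher with control siRNA (adjusted p = 4.16e-07). The probe entered through the 150 µM groups alone, where it was high, so these p-values follow a selection on the difference tested. Over all probes with no detection filter the adjusted p was 1.99e-07 with MTF1 siRNA and 1.06e-06 with control siRNA. These bounds set the mean at 150 µM against, per array, the lowest signal among detected probes or the probe's own, whichever was higher. The other 2 CXCR4 probes were each detected on only 2 of 12 arrays and were not tested. ACKR3, which takes up CXCL12 without classical signalling, differed by -0.11 ± 0.10 with MTF1 siRNA and -0.08 ± 0.10 with control siRNA (adjusted p = 0.537 and 0.604).

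IL32 encodes a proinflammatory cytokine, produced by epithelial cells as well as leukocytes, that has no counterpart in mice. Probe ILMN_2368530 read 8.93, 9.18 and 9.26 with MTF1 siRNA at 150 µM zinc, against 7.61, 7.78 and 8.06 at 3 µM. With control siRNA it read 8.46, 8.64 and 8.82 at 150 µM, against 7.60, 7.63 and 7.89 at 3 µM. The 6 arrays at 150 µM were all above the 6 at 3 µM. The rise was 1.30 ± 0.15 (adjusted p = 1.03e-04), 2.47-fold, with MTF1 siRNA and 0.93 ± 0.15 (adjusted p = 0.00152), 1.91-fold, with control siRNA.

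Probe ILMN_1778010, annotated to another IL32 transcript, read 6.59, 6.84 and 6.98 at 150 µM against 5.47, 5.70 and 5.81 at 3 µM with MTF1 siRNA. With control siRNA it read 6.52, 6.65 and 6.68 at 150 µM against 5.31, 5.94 and 6.30 at 3 µM. The groups again did not overlap, with a wide spread in the control siRNA group at 3 µM (SD 0.50, against 0.09 to 0.20 in the other 3 groups). The rise was 1.14 ± 0.21 (adjusted p = 0.00295) with MTF1 siRNA and 0.77 ± 0.21 (adjusted p = 0.0255) with control siRNA. The call with control siRNA was lost without replicate 3 of control siRNA at 3 µM, where the difference was 0.50, and without any 1 of the 3 control siRNA arrays at 150 µM, with an adjusted p of at most 0.0663.

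**Figure D2:**
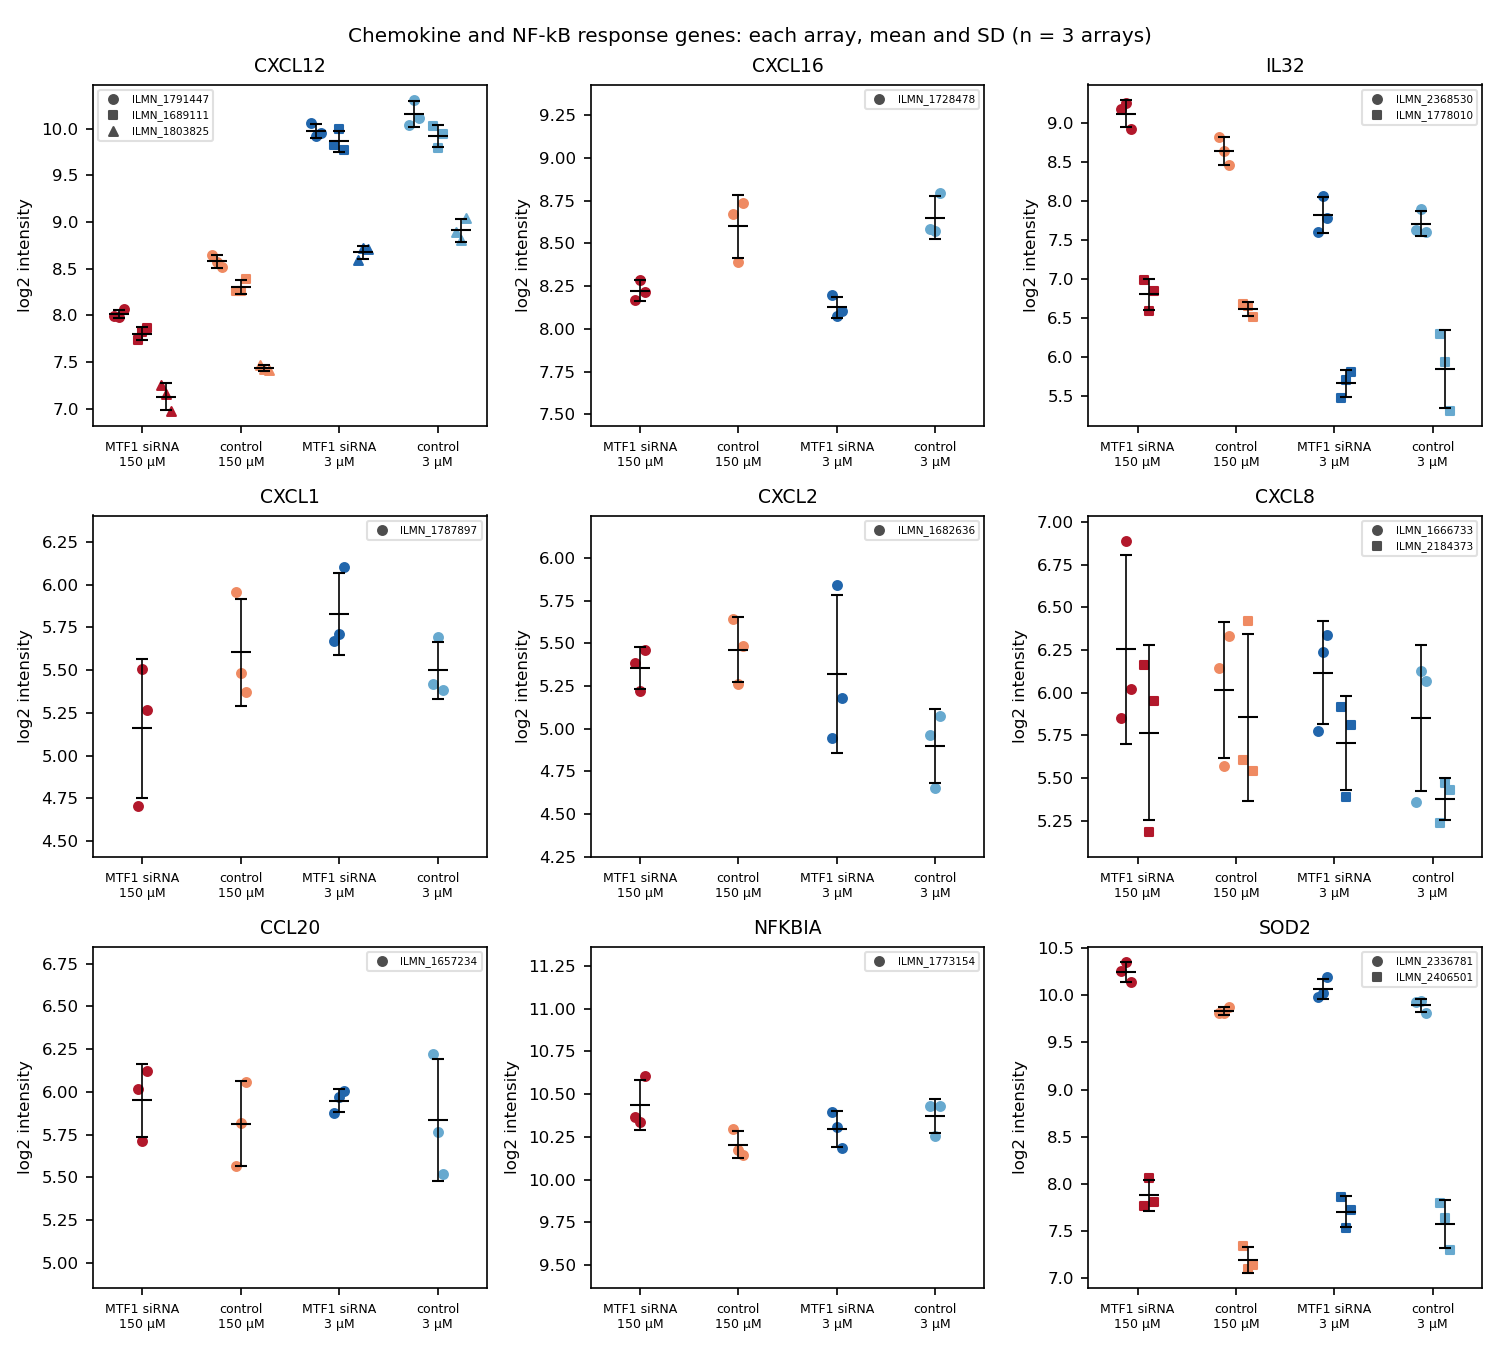
Log2 normalised intensity of the 14 entering probes on every array, 1 panel per gene, with the groups on the horizontal axis from MTF1 siRNA at 150 µM to control siRNA at 3 µM zinc. Points are arrays, horizontal bars are group means and whiskers are the SD of 3 arrays. The 3 CXCL12 probes sit lower at 150 µM and the 2 IL32 probes higher, while the SOD2 probes are lowest in control siRNA cells at 150 µM.

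CXCL1, CXCL2 and CXCL8 encode the neutrophil attractants of the chromosome 4 cluster, and all read near the detection limit, where the lowest detected signal per array lay between 5.14 and 5.24. CXCL1 read 4.71, 5.27 and 5.50 with MTF1 siRNA at 150 µM zinc against 5.67, 5.71 and 6.10 at 3 µM, and was detected on 2 of 3 arrays at 150 µM. With control siRNA it read 5.37, 5.48 and 5.96 at 150 µM against 5.39, 5.42 and 5.69 at 3 µM. The groups did not overlap with MTF1 siRNA and did with control siRNA. The difference with MTF1 siRNA was -0.67 ± 0.21 and missed the threshold (adjusted p = 0.0554), and with control siRNA it was 0.11 ± 0.21 (95% interval -0.36 to 0.57, adjusted p = 0.772). The difference with MTF1 siRNA passed without replicate 2 of MTF1 siRNA at 150 µM (-0.84, adjusted p = 0.0309), without replicate 1 of control siRNA at 150 µM (adjusted p = 0.043) and with array weights (adjusted p = 0.0345).

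CXCL2 read 5.26, 5.48 and 5.64 with control siRNA at 150 µM zinc against 4.66, 4.96 and 5.07 at 3 µM, where it was detected on 0 of 3 arrays. With MTF1 siRNA it read 5.22, 5.38 and 5.46 at 150 µM against 4.95, 5.18 and 5.84 at 3 µM. The control siRNA groups did not overlap and the MTF1 siRNA groups did. CXCL2 entered through the 150 µM groups alone, with 1 of 3 arrays detected for MTF1 siRNA at 3 µM. The difference with MTF1 siRNA was 0.03 ± 0.20 (adjusted p = 0.939). With control siRNA the level at 150 µM was at least 1.19-fold that at 3 µM and missed the threshold (adjusted p = 0.0767, or 0.185 with no detection filter). Without replicate 2 of MTF1 siRNA at 3 µM, the array that read 5.84, the control siRNA comparison had an adjusted p of 0.024.

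The 2 CXCL8 probes ranged between 5.19 and 6.89 over the 12 arrays, and neither was called. Their zinc differences were 0.14 ± 0.30 and 0.06 ± 0.27 with MTF1 siRNA and 0.16 ± 0.30 and 0.47 ± 0.27 with control siRNA, with adjusted p between 0.25 and 0.914. The 95% intervals reached -0.53 and 1.06, so CXCL8 changes of such sizes were not excluded with 3 arrays a group. For CXCL8 probe ILMN_2184373 the control siRNA arrays at 150 µM all lay above those at 3 µM, while the other CXCL8 zinc groups overlapped. This probe was detected on 2 of 3 MTF1 siRNA arrays at 150 µM. CCL20, the ligand of CCR6 that epithelium uses to attract dendritic cells and lymphocytes, ranged between 5.52 and 6.22 on all 12 arrays. Its zinc differences were 0.00 ± 0.18 with MTF1 siRNA and -0.02 ± 0.18 with control siRNA (adjusted p = 0.994 and 0.948). CXCL3 was detected on 4 of 12 arrays, in 1 MTF1 siRNA array at 150 µM, 0 control siRNA arrays at 150 µM, 1 MTF1 siRNA array at 3 µM and 2 control siRNA arrays at 3 µM.

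NFKBIA, the IkB protein that NF-kB itself induces, was well measured and moved little. It read 10.34, 10.37 and 10.60 at 150 µM against 10.19, 10.31 and 10.40 at 3 µM with MTF1 siRNA, and 10.15, 10.17 and 10.30 against 10.26, 10.43 and 10.43 with control siRNA. The zinc difference was 0.14 with MTF1 siRNA (95% interval -0.09 to 0.37, adjusted p = 0.434) and -0.17 with control siRNA (95% interval -0.40 to 0.06, adjusted p = 0.304). CXCL16, a membrane-bound chemokine that also acts as a scavenger receptor, differed by 0.10 with MTF1 siRNA (95% interval -0.14 to 0.34) and by -0.05 with control siRNA (95% interval -0.29 to 0.19). The 2 SOD2 probes differed by 0.18 and 0.17 with MTF1 siRNA and by -0.06 and -0.38 with control siRNA, with adjusted p between 0.0927 and 0.713. The last of these, for ILMN_2406501, was -0.53 and passed (adjusted p = 0.0375) without replicate 3 of control siRNA at 3 µM.

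**Figure D3:**
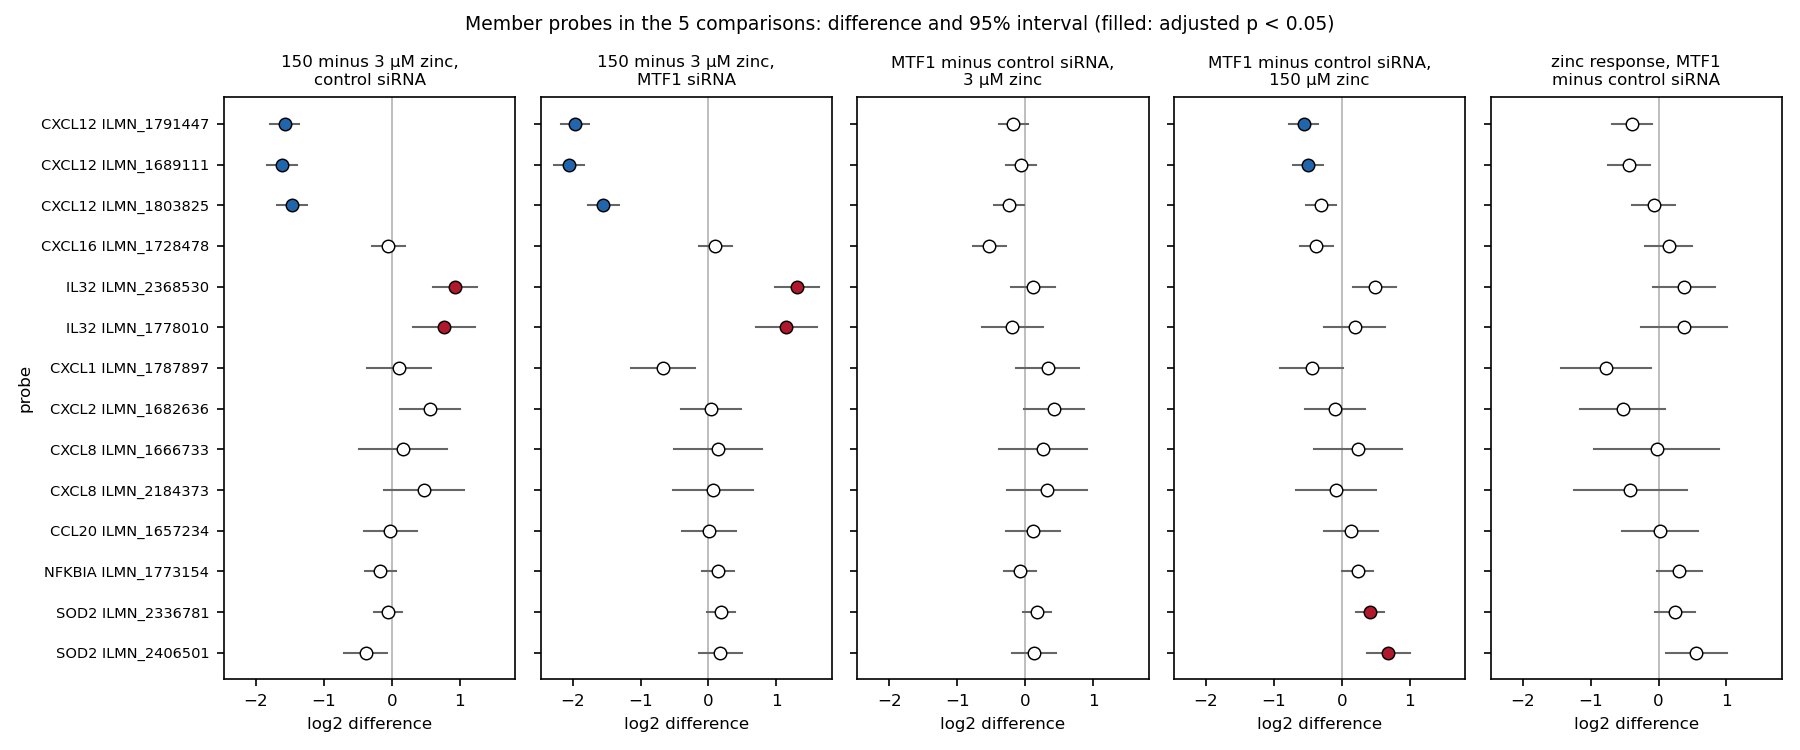
Log2 differences of the 14 member probes in the 5 comparisons, with 95% intervals, filled where the adjusted p is below 0.05. The 3 CXCL12 probes lie between -2.06 and -1.48 in the zinc comparisons and the 2 IL32 probes between 0.77 and 1.30, and no probe is filled in the comparison of siRNAs at 3 µM zinc or in the difference of zinc responses. The fitted CXCL2 values set against control siRNA at 3 µM, where CXCL2 was not above background, are not bounds.

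The second question was how these genes differed between MTF1 siRNA and control siRNA at each zinc level. At 150 µM zinc, 2 of the 3 CXCL12 probes were lower and both SOD2 probes were higher with MTF1 siRNA than with control siRNA. These 4 called of 14 stand against 2.37% of all probes. Over all probes 142 were higher (0.815%) and 270 lower (1.55%), a split that became 158 and 163 with arrays centred on their medians. Groups did not overlap for 8 of the 14, against 26.8% of all probes. At 3 µM zinc 0 of 14 member probes were called by limma, against 0.103% of all probes, and 2 had an unadjusted p below 0.05, as did 14.3% of all probes. Over all probes at 3 µM 3 were higher (0.0172%) and 15 lower (0.0861%), or 3 and 5 with median centring, and member groups did not overlap for 3 of 14, against 20.1% of all probes. The median difference of the 14 was 0.02 at 150 µM and 0.11 at 3 µM, beside 0.00 and 0.01 over all probes. Each siRNA comparison shares its arrays with the zinc comparisons above, so the values of a gene in them are not independent.

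At 150 µM zinc, where CXCL12 was already low, MTF1 siRNA left it lower still: 8.02 ± 0.04 against 8.58 ± 0.07 (SD, n = 3) for ILMN_1791447 and 7.80 ± 0.07 against 8.30 ± 0.08 for ILMN_1689111. All 3 MTF1 siRNA arrays lay below all 3 control siRNA arrays for each of the 3 probes. The differences were -0.56 ± 0.10 (SE, adjusted p = 0.0194) and -0.50 ± 0.10 (adjusted p = 0.031), while ILMN_1803825 at -0.31 ± 0.10 missed the threshold (adjusted p = 0.12). The ILMN_1791447 and ILMN_1689111 calls were lost without replicate 1 or 2 of MTF1 siRNA or replicate 2 or 3 of control siRNA at 150 µM, with an adjusted p of up to 0.111, and in a fit on the 6 arrays at 150 µM alone. The ILMN_1689111 call was also lost without replicate 3 of MTF1 siRNA at 150 µM. At 3 µM the 3 probes differed by -0.17, -0.06 and -0.24, with adjusted p between 0.321 and 0.827.

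SOD2 turns superoxide into hydrogen peroxide in the mitochondrial matrix and is a classical NF-kB target. Probe ILMN_2336781 read 10.14, 10.26 and 10.35 with MTF1 siRNA against 9.81, 9.81 and 9.88 with control siRNA at 150 µM zinc. Probe ILMN_2406501 read 7.76, 7.81 and 8.07 with MTF1 siRNA against 7.10, 7.14 and 7.35 with control siRNA. Neither pair of groups overlapped. The differences were 0.41 ± 0.10 (adjusted p = 0.0465) and 0.69 ± 0.15 (adjusted p = 0.0364).

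The SOD2 calls sat close to the threshold. That of ILMN_2336781 held in only 1 of the 12 fits that left out 1 array, the one without replicate 3 of MTF1 siRNA at 3 µM, with an adjusted p of up to 0.155 in the others. That of ILMN_2406501 held in 6 of the 12, and was lost without any 1 of the MTF1 siRNA arrays at 150 µM, without replicate 2 or 3 of control siRNA at 150 µM and without replicate 2 of control siRNA at 3 µM. The size of the difference stayed between 0.37 and 0.47 for ILMN_2336781 and between 0.59 and 0.77 for ILMN_2406501 across these fits. At 3 µM zinc the probes differed by 0.17 ± 0.10 and 0.13 ± 0.15 (adjusted p = 0.435 and 0.723).

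CXCL16 was lower with MTF1 siRNA at both zinc levels without passing the threshold at either. It read 8.17, 8.21 and 8.29 with MTF1 siRNA against 8.39, 8.68 and 8.74 with control siRNA at 150 µM, and 8.08, 8.10 and 8.20 against 8.57, 8.58 and 8.80 at 3 µM. All 6 MTF1 siRNA arrays lay below all 6 control siRNA arrays. The differences were -0.38 ± 0.11 (adjusted p = 0.0921) at 150 µM and -0.53 ± 0.11 (adjusted p = 0.107) at 3 µM. Both passed the threshold with no background correction, with the authors' deposited log2 values and with a variance trend in the fit, with adjusted p between 0.0254 and 0.0451.

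IL32 probe ILMN_2368530 was 0.48 ± 0.15 higher with MTF1 siRNA at 150 µM zinc without overlap between the groups (adjusted p = 0.1), and ILMN_1778010 differed by 0.19 ± 0.21 (adjusted p = 0.642). The ILMN_2368530 difference passed under the same 3 alternatives as CXCL16, with adjusted p between 0.0206 and 0.0338. NFKBIA differed by 0.23 ± 0.11 at 150 µM (adjusted p = 0.237) with groups that did not overlap, and by -0.07 ± 0.11 at 3 µM (adjusted p = 0.786). CXCL1 differed by -0.44 ± 0.21 at 150 µM and 0.33 ± 0.21 at 3 µM (adjusted p = 0.258 and 0.51). CXCL2 differed by -0.11 ± 0.20 at 150 µM (adjusted p = 0.808). At 3 µM CXCL2 was detected on 1 of 3 MTF1 siRNA arrays and 0 of 3 control siRNA arrays, so no fold is given. The groups overlapped and the difference was not called (adjusted p = 0.369). For CXCL8 and CCL20 the siRNA differences lay between -0.09 and 0.32, with adjusted p between 0.619 and 0.885.

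The third question was whether the zinc response itself differed with MTF1 siRNA. By limma 0 of 14 member probes passed for the difference between the zinc responses, against 0.0230% of all probes (0.00574% higher and 0.0172% lower), and 4 had an unadjusted p below 0.05, beside 15.8% of all probes. The zinc difference of CXCL12 was more negative with MTF1 siRNA by 0.39 ± 0.14 for ILMN_1791447 (adjusted p = 0.229) and by 0.44 ± 0.14 for ILMN_1689111 (adjusted p = 0.205), but by only 0.07 ± 0.14 for ILMN_1803825 (adjusted p = 0.832). That of IL32 was larger by 0.37 ± 0.21 and 0.38 ± 0.29 (adjusted p = 0.402 and 0.551). SOD2 probe ILMN_2406501 had a zinc difference 0.56 ± 0.21 higher with MTF1 siRNA (adjusted p = 0.245) and CXCL1 one 0.77 ± 0.30 lower (adjusted p = 0.261). A modified zinc response was therefore not shown for any member.

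Around these members, other genes of the NF-kB and chemokine systems were read from 8 lists. Zinc at 150 µM was followed by calls on 16 of the 58 entering list probes with MTF1 siRNA, 11 higher and 5 lower, against 15.0% of all entering probes. With control siRNA 10 of the 58 were called, 7 higher and 3 lower, which is the share of all entering probes, 17.2%. MTF1 siRNA gave 1 call of 58 at 150 µM zinc, against 2.37% of all probes, and 0 of 58 by limma at 3 µM, where 9 had an unadjusted p below 0.05, beside 14.3% of all probes. The difference between the zinc responses gave 0 of 58 by limma, with 12 at an unadjusted p below 0.05, beside 15.8% of all probes. Of the 58, 6 were detected on 0 arrays of at least 1 group (RELB, TNF, CCL26, CXCL14, CXCR4 and a CCL5 probe). These 6 entered through groups in which they were high, so their tests follow a selection on level, and their adjusted p with no detection filter is given beside them.

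Among other reported NF-kB targets, TNF, IER3, PTGS2 and PLAU rose with zinc under both siRNAs, 4 of 7 entering probes, where 7.06% of all probes were called higher with MTF1 siRNA and 8.43% with control siRNA. Complement factor gene CFB fell with MTF1 siRNA. The 7 entered of 22 genes on the array, and 7 of the others were detected on 0 arrays. The median difference of the 7 was 0.70 with MTF1 siRNA and 0.55 with control siRNA, or 0.35 and 0.03 with TNF put at its bound. IER3, an early response gene tied to survival, read 9.34, 9.50 and 9.70 with MTF1 siRNA at 150 µM against 8.30, 8.31 and 8.63 at 3 µM, a rise of 1.10 ± 0.14 (adjusted p = 2.54e-04). With control siRNA it read 8.85, 9.09 and 9.29 against 8.44, 8.50 and 8.56, a rise of 0.58 ± 0.14 (adjusted p = 0.0152). PTGS2, the inducible cyclooxygenase, rose by 0.90 ± 0.20 with MTF1 siRNA and 0.69 ± 0.20 with control siRNA (adjusted p = 0.0094 and 0.0326). PLAU, the urokinase gene, rose by 0.70 ± 0.17 and 0.55 ± 0.17 (adjusted p = 0.0166 and 0.0472).

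The cytokine gene TNF stayed dim. It was not well above background at 3 µM zinc and was at least 1.26-fold higher at 150 µM with MTF1 siRNA, detected on 2 of 3 arrays (adjusted p = 0.00716), and at least 1.02-fold higher with control siRNA (adjusted p = 0.0147). It entered through control siRNA at 150 µM alone. With no detection filter its adjusted p was 0.0193 with MTF1 siRNA and 0.0397 with control siRNA. CFB fell by 0.70 on the log2 scale with MTF1 siRNA (adjusted p = 0.00456). With control siRNA CFB averaged 8.14 at 150 µM against 8.38 at 3 µM, without a call. IL6, with differences of 0.12 and 0.03, and the syndecan gene SDC4, with 0.35 and 0.03, with MTF1 and with control siRNA, were not called. In control siRNA cells the calls of IER3, PTGS2, PLAU and TNF were each lost without some single arrays, 2 of 12 for IER3 and TNF, 4 of 12 for PTGS2 and 10 of 12 for PLAU. With MTF1 siRNA the PLAU call was lost without 3 of the 12, while the IER3, PTGS2, TNF and CFB calls held without any 1 of them.

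Of 5 entering NF-kB subunit probes 2 rose with zinc in MTF1 siRNA cells, where 7.06% of all probes were called higher. In control siRNA cells 0 passed by limma and 2 had an unadjusted p below 0.05, beside 32.2% of all probes. NFKB2, which encodes the p100 precursor, rose by 0.76 ± 0.14 with MTF1 siRNA (adjusted p = 0.00272) against 0.25 ± 0.14 with control siRNA (adjusted p = 0.222) on probe ILMN_1799062. RELB, which encodes its usual partner, entered through the 150 µM groups alone. It rose by 0.86 ± 0.22 with MTF1 siRNA (adjusted p = 0.0212), where 1 of 3 arrays at 3 µM detected it. In control siRNA cells RELB was at least 1.36-fold higher at 150 µM, with 0 of 3 arrays detecting it at 3 µM, and missed the threshold (adjusted p = 0.0523). With no detection filter the RELB p was 0.0543 with MTF1 siRNA and 0.13 with control siRNA, so its call is lost there. The difference of the 2 zinc responses was not called for either gene (adjusted p = 0.248 and 0.811), and a second NFKB2 probe was called under neither siRNA. That probe, ILMN_2390859, averaged 6.20 at 150 µM against 5.55 at 3 µM with MTF1 siRNA. With control siRNA it averaged 6.37 against 5.58, the larger rise of the pair, in reverse of ILMN_1799062. The RELB call was lost without 4 single arrays, replicates 1 and 2 of MTF1 siRNA at each zinc level. RELA differed by 0.34 and 0.39 and NFKB1 by -0.30 and -0.05, with MTF1 and with control siRNA, without a call.

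Of 10 entering probes for IkB proteins and feedback inhibitors, 3 rose with MTF1 siRNA, while 1 rose and 1 fell with control siRNA, and for all probes the shares called higher and lower were 7.06% and 7.93% with MTF1 siRNA and 8.43% and 8.73% with control siRNA. NFKBIB, the IkB-beta gene, rose by 0.54 ± 0.12 with MTF1 siRNA and 0.53 ± 0.12 with control siRNA on probe ILMN_1690473 (adjusted p = 0.00852 and 0.00998), and its second probe, ILMN_1674152, rose by 0.90 ± 0.20 with MTF1 siRNA (adjusted p = 0.0102). NFKBID rose by 0.66 ± 0.18 with MTF1 siRNA (adjusted p = 0.0298), a call lost without 5 of 12 single arrays. NFKBIZ, a nuclear IkB protein, fell by 0.47 on the log2 scale with control siRNA (adjusted p = 0.0103). TNFAIP3, the feedback inhibitor A20, differed by 0.28 ± 0.20 and 0.29 ± 0.20 (adjusted p = 0.369 and 0.323), which like NFKBIA was no call. Of 12 probes of IKK kinases and adaptors only MAP3K7 passed, higher by 0.55 ± 0.17 with control siRNA (adjusted p = 0.0419, lost without 7 of 12 single arrays), 1 of 12 being near the 8.43% of all probes called higher. Of 4 probes of receptors upstream of NF-kB, 0 were called by limma and 0 had an unadjusted p below 0.05 in either zinc comparison (28.7% of all probes with MTF1 siRNA and 32.2% with control siRNA), and TLR2, TLR3, TLR4 and TLR5 were detected on 0 arrays.

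Of 24 other chemokine genes on the array, 5 entered, 8 were detected on at least 1 array without entering and 11 were detected on 0 arrays. CCL2, the monocyte attractant, read 6.13, 6.20 and 6.62 with control siRNA at 150 µM zinc against 6.89, 7.12 and 7.26 at 3 µM. It fell by 0.77 on the log2 scale (adjusted p = 0.0109). With MTF1 siRNA CCL2 averaged 6.79 at 150 µM against 6.96 at 3 µM, without a call. CCL26 was at least 1.73-fold higher (adjusted p = 0.00287) and CXCL14 at least 1.25-fold lower (adjusted p = 0.0319) at 150 µM with MTF1 siRNA. CCL26 entered through the 150 µM groups alone, where it was high, and CXCL14 through MTF1 siRNA at 3 µM alone. With no detection filter the adjusted p was 0.00743 for CCL26 and 0.0808 for CXCL14, whose call is lost there and without any 1 of the 6 MTF1 siRNA arrays. CCL5 probe ILMN_1773352 was at least 1.57-fold higher with MTF1 than with control siRNA at 150 µM (adjusted p = 0.047). That probe was detected on all 3 arrays of MTF1 siRNA at 150 µM alone and entered through them. Its call was lost with no detection filter (adjusted p = 0.123) and without 10 of 12 single arrays, and the second CCL5 probe, detected on all 12 arrays, was not called there (adjusted p = 0.212). Among 6 entering chemokine receptor probes, that of CXCR4 was the only one called in any of the 5 comparisons. Its calls, higher with zinc under both siRNAs, stand beside 7.06% of all probes called higher with MTF1 siRNA and 8.43% with control siRNA. Between the siRNAs at 150 µM zinc 0 of the 6 were called by limma, while 3 had an unadjusted p below 0.05, beside 21.1% of all probes.

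Among 8 probes of other genes that remove superoxide and peroxide, catalase probe ILMN_1651705 fell by 0.86 on the log2 scale with MTF1 siRNA and by 0.69 with control siRNA at 150 µM zinc (adjusted p = 0.00142 and 0.00628). A second CAT probe did not pass (adjusted p = 0.0585 and 0.375). Both probes of PRDX3, a mitochondrial peroxidase like SOD2 in its location, fell with MTF1 siRNA, by 0.58 and 0.41 (adjusted p = 0.00332 and 0.042). SOD1, the cytoplasmic superoxide dismutase, differed by 0.10 and -0.18 with MTF1 and with control siRNA without a call. Between the siRNAs at 150 µM zinc, where SOD2 was called, 0 of these 8 probes passed by limma. An unadjusted p below 0.05 was found for 7 of them, beside 21.1% of all probes. The entering probes of SOD1, GPX1, TXN2 and TXNRD2 averaged higher with MTF1 siRNA there, and those of CAT and PRDX3 lower.

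**Figure D4:**
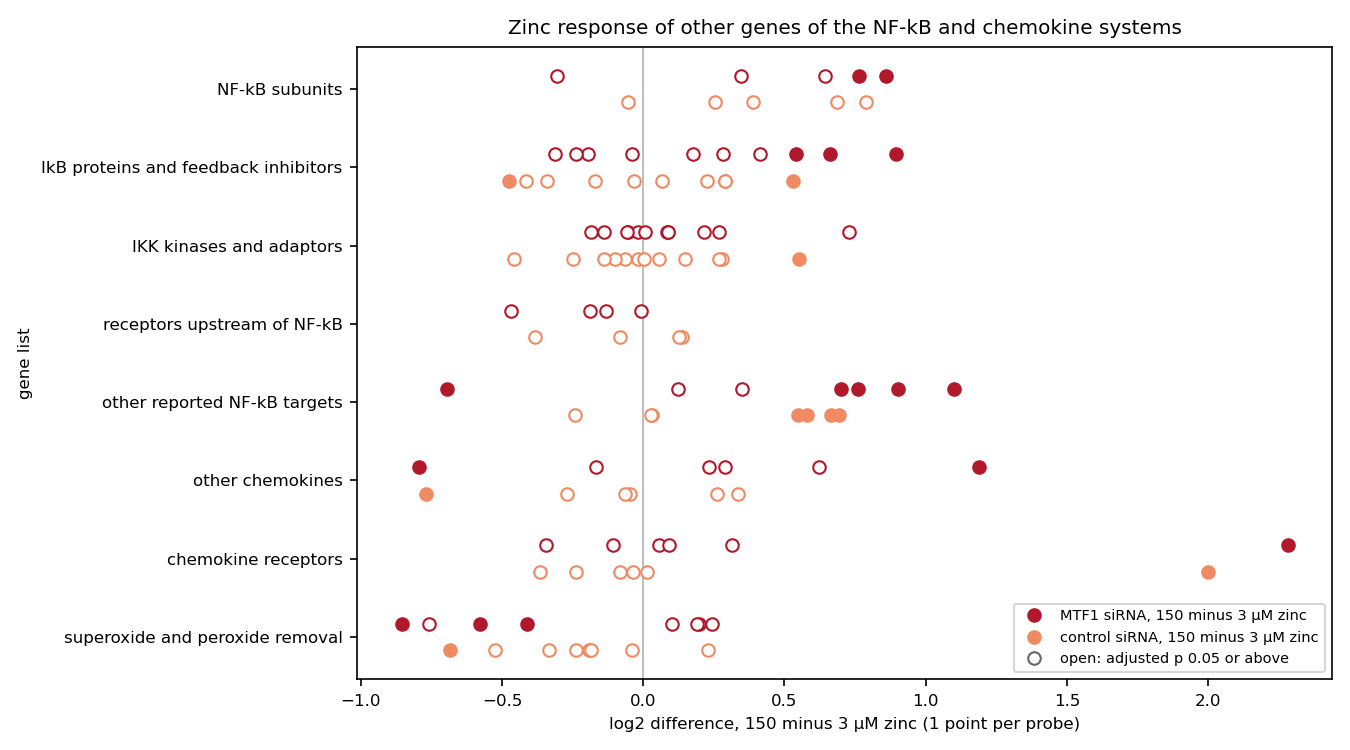
Log2 differences between 150 and 3 µM zinc for the entering probes of 8 gene lists, 1 point per probe, with MTF1 siRNA in the upper and control siRNA in the lower line of each list, filled where the adjusted p is below 0.05. The CXCR4 points stand at 2.28 and 2.00, and the fitted values of probes not above background at 3 µM, such as CXCR4 and TNF, are not bounds.

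Marker genes moved with zinc as well, in both directions. Over all probes 7.06% were called higher and 7.93% lower with MTF1 siRNA, and 8.43% and 8.73% with control siRNA. Of 7 entering immune marker probes, 1 was called higher and 1 lower under each siRNA. CSF1R, a gene of the immune marker list, read 8.52, 8.60 and 8.68 with MTF1 siRNA at 150 µM against 5.73, 5.76 and 5.96 at 3 µM, and 8.32, 8.39 and 8.43 against 5.65, 6.23 and 6.35 with control siRNA. It rose by 2.78 ± 0.16 and 2.31 ± 0.16 (adjusted p = 2.95e-07 and 2.03e-06). LYZ, the lysozyme gene, went the other way, by -0.73 with MTF1 siRNA and -0.39 with control siRNA (adjusted p = 0.00107 and 0.0338, the second lost without 7 of 12 single arrays). PTPRC, which marks leukocytes as a class, was detected on at most 1 of 12 arrays by any of its probes. Intensities of all probes of the immune list, detected or not, were summed per array before taking log2, so bright probes weigh most. This log2 sum ranged between 11.05 and 11.11 with MTF1 siRNA and 11.09 and 11.20 with control siRNA at 150 µM. At 3 µM the log2 sum ranged between 10.99 and 11.14 with MTF1 siRNA and 11.02 and 11.03 with control siRNA. That of the fibroblast list ranged between 11.34 and 11.43, 11.44 and 11.58, 10.64 and 10.79, and 10.96 and 11.03 in the same order. Of its 7 entering probes 3 were called higher and 0 lower with MTF1 siRNA, and 3 higher and 1 lower with control siRNA. Both COL1A2 probes were higher at 150 µM under each siRNA, by 0.66 to 1.00. COL1A1 was lower at 150 µM with control siRNA (-0.64, adjusted p = 0.00743) and not called with MTF1 siRNA. The remaining call under each siRNA was a PDGFRA probe, ILMN_2086470 with MTF1 siRNA, detected on 0 of 3 arrays at 3 µM there, and ILMN_1681949 with control siRNA, calls lost without 9 and 5 of 12 single arrays. ILMN_2086470 entered through other groups, so its test follows a selection on level. With no detection filter the adjusted p was 0.124 for ILMN_2086470 and 0.0589 for ILMN_1681949, so both calls are lost there.

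In the endothelial list the 1 entering probe, of CDH5, rose by 0.83 with MTF1 siRNA (adjusted p = 0.00759). The log2 sum of that list ranged between 7.65 and 7.95, 7.56 and 7.71, 7.38 and 7.58, and 7.40 and 7.69 in the same order of groups. That of the epithelial list ranged between 15.5 and 15.9 over all arrays. Of 10 entering epithelial probes, zinc was followed by 2 calls higher, KRT8 and KRT18, under each siRNA, and by 2 lower, CDH1 and VIL1, with MTF1 siRNA. KRT18 rose by 0.86 with MTF1 siRNA and 0.47 with control siRNA, while CDH1 fell by 0.39 on the log2 scale with MTF1 siRNA. Without single arrays the CDH1 call was lost in 1 of 12 fits, the KRT18 call with control siRNA in 3, the KRT8 call with MTF1 siRNA in 5 and the VIL1 call in 10. With MTF1 siRNA at 150 µM zinc probe ILMN_2160209 of the epithelial marker EPCAM was lower than with control siRNA (log2 difference -1.08, adjusted p = 0.0395), while the other EPCAM probes, at -0.32 and -0.36, were not called. The fibroblast marker PDGFRA was also lower there on probe ILMN_1681949 (-0.75, adjusted p = 0.0227) and not called on its other entering probe. Without single arrays the EPCAM call was lost in 9 of 12 fits and the PDGFRA call in 4 of 12. The part of these marker shifts in the changes of CXCL12, CXCR4, IL32 and SOD2 was not tested.

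Genes with the pattern nearest to a called member were found by the root mean square difference of the 4 centred group means, over 13712 probes with 1 symbol. Nearest to CXCL12 (ILMN_1791447) were SLC23A3 at 0.05, HSD17B2 at 0.05 and SERPINF2 at 0.07 log2 units. In MTF1 siRNA cells at 150 µM SLC23A3 was detected on 0 of 3 arrays and the other 2 genes on 1 of 3 each, so these distances rest in part on values not well above background and give no order. HSD17B2, a steroid dehydrogenase gene, averaged 5.18 and 5.63 at 150 µM zinc with MTF1 and with control siRNA, against 7.18 and 7.27 at 3 µM. Nearest to IL32 (ILMN_2368530) were MGLL at 0.04, DDIT3 at 0.04 and HSPB3 at 0.05. DDIT3, which encodes the stress-induced factor CHOP, averaged 10.06 and 9.54 at 150 µM with MTF1 and with control siRNA, against 8.72 and 8.72 at 3 µM. MGLL was detected on 2 of 3 arrays in each group at 3 µM. Nearest to SOD2 (ILMN_2336781) were MVP, OR9A4 and TCF24, each at 0.02, with TCF24 detected on 2 of 3 arrays of control siRNA at 150 µM. These likenesses describe 4 group means of the same 12 arrays.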

How the data were processed

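Total RNA was amplified to biotin-labelled cRNA starting with 200 ng and hybridised to 12 HumanHT-12 V4 arrays, 1 sample per array, per the labels' protocols. The authors deposited non-normalized bead intensity values with a detection p-value per probe, and a table of log2 values whose order on each array was that of the raw intensities (median 7.03 on every array). The normalisation behind the log2 values was not given in the sources used here. Intensities were corrected with limma 3.58.1 (R 4.3.3) neqc, which takes the background for normexp out of the detection p-values, adds 16, quantile-normalises and takes log2. lmFit and eBayes fitted 1 mean per group over 12 arrays, with 5 contrasts, two-sided tests and Benjamini-Hochberg adjustment over 17413 probes. The number of arrays limits the precision. The script was tested on simulated data. Symbols came from GEO's platform annotation, in which 30113 probes have 1 symbol, 8 several and 17202 none.

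The members and lists were chosen with earlier results of these data known. Text genes are all entering member probes, up to 6 called probes per list and comparison by smallest p, and the 3 nearest patterns per called gene. Marker genes, genes named for detection only, and uncalled list genes such as IL6, RELA and SOD1 were named after their values were seen. Alternatives covered background, normalisation, filter, probe choice, variance model, weights, replicate block and left-out arrays.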

Additional observations from a re-analysis of the deposited data

How the results depend on the processing

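The CXCL12 calls with zinc, the IL32 calls of ILMN_2368530 with zinc under both siRNAs and that of ILMN_1778010 with MTF1 siRNA held under every alternative run that measured them and without any 1 array. With 1 probe per gene, 2 of 9 members were called for zinc under each siRNA and 2 for MTF1 siRNA at 150 µM zinc. Of all 14285 probes in that setting, 2244 were called for zinc with MTF1 siRNA and 2573 with control siRNA. For MTF1 siRNA at 150 µM zinc 271 of them were called. At 3 µM, MTF1 siRNA gave 1 member call (CXCL16) with no background correction, with the authors' log2 values and with a variance trend. At 150 µM its 4 calls became 0 with no filter on dim probes, 0 with only the groups compared and 1 with the replicate block. Leaving out 1 array gave 4 to 6 member calls for zinc with control siRNA, 5 to 6 with MTF1 siRNA, 0 to 0 for MTF1 siRNA at 3 µM, 0 to 4 at 150 µM and 0 to 0 for the difference of zinc responses. The 0 calls at 150 µM came without replicate 1 or 2 of MTF1 siRNA and without replicate 2 or 3 of control siRNA at that zinc level. The stricter filter could not measure 3 member probes. No direction of a call was reversed.

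Same-numbered replicates correlated between -0.10 and 0.16 in their deviations, so the numbers were not taken to pair the arrays. Over all probes, the counts for MTF1 siRNA were 18 at 3 µM and 412 at 150 µM, and 4 for the difference of zinc responses. They were 159, 1263 and 155 with no background correction, 159, 1262 and 155 with the authors' log2 values, 150, 1172 and 131 with a variance trend, 3, 60 and 1 with no filter, and 4, 167 and 1 with the replicate block. The stricter filter gave 0 for the difference, median centring 8 at 3 µM, 1 probe per gene 271 at 150 µM, and only the groups compared 0 at 3 µM and 52 at 150 µM. Leaving out 1 array gave 2 to 20 at 3 µM, 44 to 414 at 150 µM and 1 to 2 for the difference. At 150 µM the count was 52, 44 and 181 without replicates 1, 2 and 3 of MTF1 siRNA at that zinc level, 49 and 68 without replicates 2 and 3 of control siRNA there, and 261 without replicate 2 of MTF1 siRNA at 3 µM. The 2989 zinc calls with control siRNA became 1795 with no filter, 1834 without replicate 1 of control siRNA at 3 µM and 1899 without its replicate 3 at 150 µM.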
